A study of Mus musculus with 20 samples.

Results

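The transcripts described here carry neighbouring UCSC identifiers: all whose identifier begins with uc007pr, uc007ps, uc007pt or uc007pu. They number 51 of the 8084 transcripts in the RNA-seq tables, 17 with the prefix uc007pr, 5 with uc007ps, 6 with uc007pt and 23 with uc007pu. The prefixes were taken around uc007prj.1 and uc007puu.1, a pair selected on its measured move from heavy toward light polysome fractions after Rpl10a knockdown. By that shift the pair ranked 4 and 5 from the lowest over all transcripts, so values of the shift and of the fractions that make it are a description here: the counts of limma calls on them are printed beside those over all transcripts and support nothing. The question asked of the other 49 was whether their values move like those of the pair. The 51 fill 51 of the 104 letter codes that the prefixes span, and the largest gap, 36 codes between uc007pse.1 and uc007pto.1, divides them into a first run of 22 and a second run of 29. All 51 were also in each of the 3 Ribo-Seq tables. The identifiers matched 0 entries of the reference tables used here, so the transcripts are given by identifier alone, with no gene name, role, coordinate or sequence, and closeness of identifiers is not a measured distance on a chromosome.

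The cells were E14, a pluripotent embryonic stem cell line of the mouse, and gave 20 libraries in 10 groups of 2. RNA-seq covered 8 libraries of wild-type cells that received an Rpl10a siRNA or a control siRNA by lipofection, each divided on a sucrose gradient. The heavy pool held mRNAs with 4 or more ribosomes, and the light pool held everything else, from free ribonucleoproteins, subunits and monosomes to polysomes of 2 to 3 ribosomes. Ribo-Seq covered 12 libraries: in lines with a tag on 1 allele of the gene itself (3xFLAG-Rpl10a, Rps25-3xFLAG or Rpl22-3xHA), footprints of ribosomes captured through the tag were set against footprints of all ribosomes of the lysate, called total. The FLAG tag was captured on anti-FLAG beads and the HA tag with an anti-HA antibody; the labels of the Rpl22 total libraries name that antibody too. All cells, those of the control groups included, were treated for 1 min with cycloheximide at 100 µg/ml before they were harvested. The lysis buffer listed for the RNA-seq and RPL22 libraries holds no heparin, unlike that of the RPL10A and RPS25 libraries, and the RNA-seq labels name both a stranded mRNA kit and rRNA depletion. The labels do not say whether replicates are separate cultures; the p-values below reflect the spread of these libraries alone, which may be technical. The level of Rpl10a itself and the markers of embryonic stem cells were not analysed here, since no identifier is paired with a gene name.

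A ribosome has a small and a large subunit. RPS25 is a protein of the small subunit, and RPL10A and RPL22 are proteins of the large one. In a gradient an mRNA sediments further the more ribosomes it carries, so its division between heavy and light fractions is read as ribosome load, which depends both on how often translation starts and on the length of the coding sequence. A footprint is the stretch of mRNA that a ribosome shields from RNase, and footprints per length reflect both the amount of an mRNA and the ribosomes on it. Comparing the footprints of captured ribosomes with those of all ribosomes asks whether an mRNA is found more or less on ribosomes that hold the tagged protein.

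The RNA-seq values are those the authors call RPM, reads scaled by library size and not by transcript length, so they serve to compare 1 transcript across libraries and not the levels of different transcripts. The named pair had nearly equal values in the heavy and the light pool with Rpl10a siRNA, and higher values in heavy than in light with control siRNA. For uc007prj.1 the heavy pool held 634.5 and 789.8 RPM with Rpl10a siRNA, against 1104.7 and 1327.9 RPM with control siRNA. Its light pool held 631.4 and 767.1 RPM with Rpl10a siRNA, against 443.9 and 457.4 RPM with control siRNA. The siRNA groups did not overlap in either pool, and the Rpl10a siRNA libraries were the lower ones in heavy and the higher ones in light. On the log2(RPM + 1) scale the heavy difference of uc007prj.1 was -0.77 and its light difference 0.63 (SE 0.16 each, 2 libraries a group), which makes a shift of -1.40 (SE 0.22). The shift is the heavy minus light difference under Rpl10a siRNA less the one under control siRNA, and a negative value is a move toward light. For uc007puu.1 the heavy pool held 512.5 and 675.7 RPM with Rpl10a siRNA, against 944.6 and 1042.0 RPM with control siRNA. Its light pool held 524.4 and 646.6 RPM with Rpl10a siRNA, against 368.5 and 375.1 RPM with control siRNA. Again no library of one siRNA overlapped the other, and the log2 differences were -0.75 in heavy and 0.65 in light, a shift of -1.40. Values are shares of a bulk library, so a lower value in every cell and fewer cells with the transcript cannot be told apart.

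The identifiers directly beside the pair had lower heavy values with Rpl10a siRNA too, and differed among themselves in the light pool. Before uc007prj.1, uc007pri.1 had 1567.1 and 1734.6 RPM in heavy with Rpl10a siRNA, against 2713.5 and 2607.6 RPM with control siRNA. In light it had 660.7 and 691.1 RPM with Rpl10a siRNA, against 588.7 and 662.2 RPM with control siRNA. Its light groups thus overlapped while its heavy groups did not, and its shift was -0.80. After uc007prj.1, uc007prk.1 had 90.2 and 126.1 RPM in heavy with Rpl10a siRNA, against 151.9 and 198.3 RPM with control siRNA, and 121.9 and 153.6 RPM in light with Rpl10a siRNA, against 117.3 and 126.2 RPM with control siRNA. That is the same picture at lower values, with light groups that overlapped, and a shift of -0.87 with the wider SE of 0.28. Before uc007puu.1, uc007put.1 had 432.3 and 535.7 RPM in heavy with Rpl10a siRNA, against 788.4 and 896.6 RPM with control siRNA, and 488.7 and 548.9 RPM in light with Rpl10a siRNA, against 371.9 and 359.2 RPM with control siRNA. It came close to uc007puu.1 in both pools, with a shift of -1.31. After uc007puu.1, uc007puw.1 had 613.0 and 681.3 RPM in heavy with Rpl10a siRNA, against 1037.4 and 1073.3 RPM with control siRNA, and 719.3 and 766.0 RPM in light with Rpl10a siRNA, against 884.0 and 769.0 RPM with control siRNA. Here the Rpl10a siRNA libraries were the lower ones in both pools, and the shift was -0.56. Further out, the next members on both sides, 2 and 3 places away, had shifts of -1.16, -1.09, -0.98 and -0.94 around uc007prj.1. Around uc007puu.1 they lay between -1.31 and -0.25, the value nearest 0 being that of uc007pux.1, whose light difference was -0.36.

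**Figure D1:**
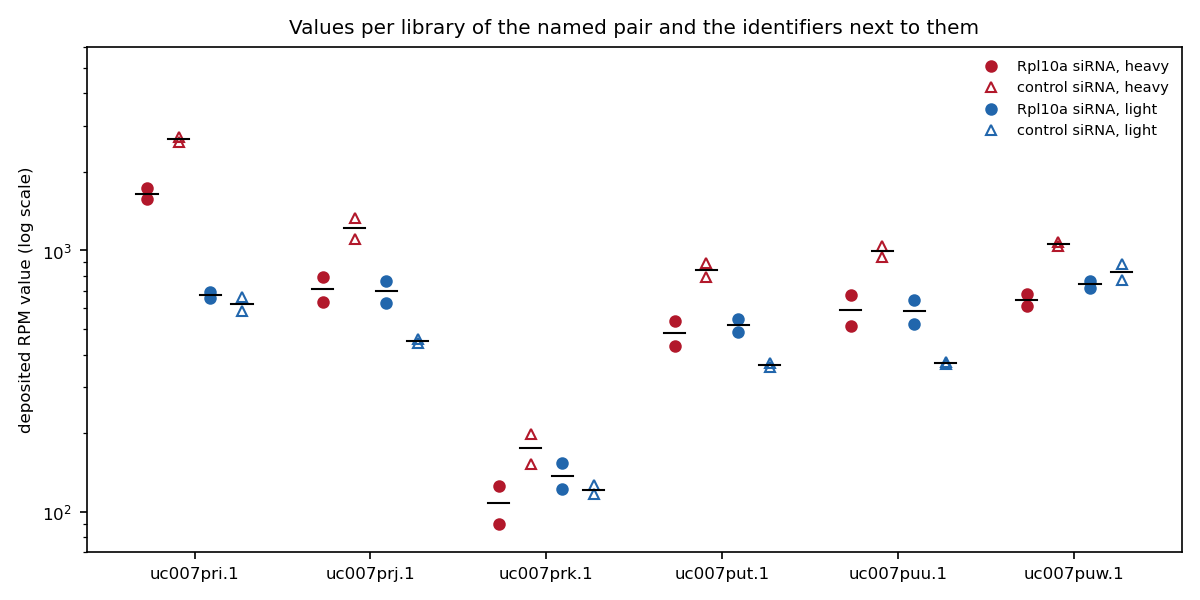
Deposited RPM values (log axis) of the named pair and of the members directly before and after each, 1 point per library, with a bar at the mean of the 2 libraries of a group. In all 6 transcripts the heavy Rpl10a siRNA points lie below the heavy control siRNA points, while in light the order of the siRNA groups differs between transcripts.

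Over the whole set, 50 of 51 shifts were below 0, the exception being uc007puo.1 at 0.09. The median of the 51 was -0.99, with quartiles of -1.18 and -0.77 and a range of -1.40 to 0.09, beside a median of 0.09 over all 8084 transcripts, of which 43.8% were below 0. At a limma adjusted p below 0.05, 34 of 51 were called toward light and 0 toward heavy, beside 3.57% and 2.86% of all transcripts; without the named pair it was 32 of 49. The contrast also chose the prefixes, so these counts describe the set and support nothing. The members made up 11.8% of the 289 transcripts called toward light, and those called were 66.7% of the members. Members accounted for 8 of the 20 lowest shifts over all transcripts and for 22 of the 100 lowest. After the named pair, the largest negative shifts among the members were those of uc007prc.1 (-1.36), uc007pug.1 (-1.36), uc007pud.1 (-1.33) and uc007pur.1 (-1.31). Both runs had them: the median was -0.91 in the first run, with 14 of 22 called, and -1.08 in the second, with 20 of 29 called. With library medians aligned, the calls over all transcripts were 112 toward heavy and 412 toward light, against 231 and 289 with the deposited scaling, and 36 members were called. The number called depends on single libraries: it was 42 without the second heavy library of Rpl10a siRNA and 0 without any one of the other 7, while the median stayed between -1.10 and -0.86.

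The identifiers on both sides of the set did not have this low median, although single ones after it had shifts as low as members. The 14 transcripts from uc007pn to uc007pq had a median shift of 0.01, with 0 called by limma and 3 at an unadjusted p below 0.05. The 12 from uc007pv to uc007py had a median of 0.33 and went both ways, with 7 above 0, 5 below and a lower quartile of -0.73, and 1 was called toward light. At the lower edge, the first members uc007pra.1 and uc007prb.1 had shifts of -0.91 and -0.86, and the last outsiders uc007pqd.1 and uc007pqh.2 had 0.39 and 0.78. Those 2 outsiders had low values, 11.3 to 24.6 RPM and 6.5 to 15.4 RPM over the 8 libraries. In the total libraries of the Rpl10a line they had means of 5.5 and 7.15 RPKM, against 1893 and 2097 RPKM for the 2 members. The lower edge thus sets dense members beside sparse outsiders. At the upper edge the change is not at the prefix itself. The last members uc007puy.1 and uc007puz.1 had -1.24 and -1.27, the first outsiders uc007pvi.1 and uc007pvj.1 still had -1.07 and -0.91, and uc007pvn.1 had 0.39. The next ones, uc007pwh.1 and uc007pwj.1, again had -0.67 and -1.06, and uc007pwl.2 had 0.37. In uc007pvi.1 and uc007pvj.1, however, the siRNA groups overlapped in both pools and replicates lay far apart. For uc007pvi.1 the heavy pool held 40.3 and 24.3 RPM with Rpl10a siRNA, against 68.2 and 32 RPM with control siRNA. Of these outsiders, uc007pvi.1 also had a mean of 1048 RPKM in the total libraries of the Rpl10a line, somewhat below the lowest of the dense members described below.

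The pools that make up the shift behaved differently over the set. In the heavy pool the whole set had lower values with Rpl10a siRNA: 51 of 51 log2 differences were below 0, with a median of -0.71, a range of -0.93 to -0.14 and an SD over members of 0.14. Of these, 48 were called lower by limma and 0 higher, beside 22.7% lower and 26.8% higher over all transcripts. For 50 members both heavy libraries of Rpl10a siRNA lay below both of control siRNA, and for 0 above, beside 36% and 38.1% of all transcripts. The largest differences were those of uc007ptw.1 (-0.93), uc007ptx.1 (-0.83), uc007psa.1 (-0.83), uc007prr.2 (-0.82), uc007pug.1 (-0.81) and uc007put.1 (-0.80). For uc007ptw.1 the heavy values were 387.3 and 342.1 RPM with Rpl10a siRNA, against 662.5 and 730.9 RPM with control siRNA, with no overlap. The 3 members not called were uc007puj.2 (-0.32), uc007pto.1 (-0.31) and uc007pun.1 (-0.14), and uc007pun.1 was the member whose groups overlapped, at 58.6 and 56.2 RPM with Rpl10a siRNA, against 77.3 and 51.7 RPM with control siRNA. The median heavy difference over all transcripts was 0.01, and it is sensitive to scaling: it was 0.12 with libraries scaled to the same total and -0.12 with medians aligned. The members' median moved with it, to -0.60 and -0.84 under these scalings, and over all transcripts the calls were 2454 higher and 1243 lower, or 1687 higher and 2473 lower, against 2164 higher and 1836 lower with the deposited scaling.

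In the light pool the set was spread out. The median log2 difference was 0.24 and the range -0.56 to 1.10, with an SD over members of 0.36, and 39 of 51 lay above 0. Limma called 9 higher and 0 lower, beside 2.51% and 3.61% of all transcripts, and all 9 were in the second run. The first run had 0 called of 22, with 8 at an unadjusted p below 0.05 and a median of 0.20, and the second run a median of 0.42. Whether the runs differ was not tested. Groups did not overlap for 34 members with higher values and 9 with lower values under Rpl10a siRNA, beside 32.5% and 29% of all transcripts. The largest difference among the called members was that of uc007pun.1 (1.10), with 40.8 and 34.4 RPM in light with Rpl10a siRNA, against 20.7 and 13.8 RPM with control siRNA. Next among the called came uc007puj.2 (0.76), uc007puz.1 (0.67), uc007ptz.2 (0.61), uc007puq.2 (0.59) and uc007pur.1 (0.59). The named pair, at 0.65 and 0.63, and uc007puk.1, at 0.61, had differences of that size and were not called. For uc007puj.2 the light values were 551.3 and 566.2 RPM with Rpl10a siRNA, against 348.1 and 310.7 RPM with control siRNA. At the other end stood uc007puo.1 (-0.56), with 1468.3 and 1518.9 RPM in light with Rpl10a siRNA, against 2309.0 and 2111.9 RPM with control siRNA. In both of these the siRNA groups did not overlap, and their order was opposite. The count called was 0 without either light library or either control siRNA heavy library and 25 without either Rpl10a siRNA heavy library; scaled to the same total, 23 members were called higher and 1 lower, with 356 higher and 241 lower over all transcripts, against 203 and 292 with the deposited scaling.

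**Figure D2:**
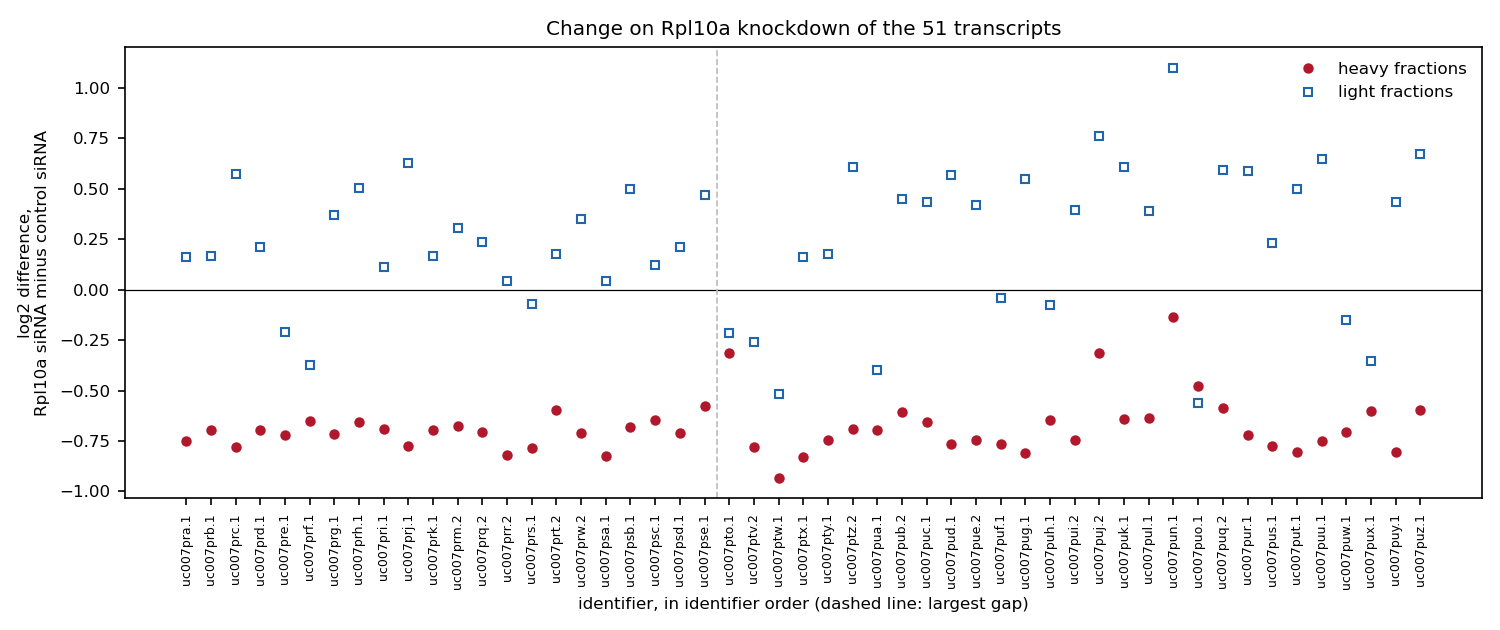
Log2 difference between Rpl10a siRNA and control siRNA in heavy fractions (filled circles) and light fractions (open squares) for each of the 51 transcripts in identifier order, on the log2(RPM + 1) scale. All heavy points lie between -0.93 and -0.14, and the light points are spread between -0.56 and 1.10.

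The summed values show the same in shares of a library. Members held 4.02% and 4.43% of all RPM in the heavy pool with Rpl10a siRNA, against 6.24% and 6.26% with control siRNA. In the light pool they held 4.23% and 4.37% with Rpl10a siRNA, against 3.95% and 3.76% with control siRNA. The siRNA groups did not overlap in either pool, and with Rpl10a siRNA the heavy and light shares did overlap. The median member had 563.8 and 675.7 RPM in heavy with Rpl10a siRNA, against 970.6 and 1073.3 RPM with control siRNA. In light the median member had 535.0 and 574.7 RPM with Rpl10a siRNA, against 453.6 and 452.3 RPM with control siRNA.

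Seen within each siRNA, the set was divided between heavy and light in knockdown cells, and most members were heavy-sided in control cells. These contrasts use the same libraries as the shift and are given beside it as values. With Rpl10a siRNA the median log2 difference, heavy minus light, was -0.11, against 0.16 over all transcripts, with 22 of 51 above 0. Limma called 8 higher in heavy and 13 lower, beside 31.6% and 22.1% of all transcripts. Without overlap, 13 were higher in heavy and 18 lower, beside 44.4% and 29.9% of all transcripts. The 21 calls by limma numbered 13 in a fit of the 4 libraries of that siRNA alone, 11 without its second light library and 12 without its first heavy library. Without that heavy library the median was 0.03, on the other side of 0. With control siRNA the median heavy minus light difference was 0.94, against -0.04 over all transcripts, and it was above 0 for 46 of 51. Limma called 39 members higher in heavy and 4 lower, beside 28% and 26.4% of all transcripts. Heavy and light libraries did not overlap for 46 members with higher heavy values and 5 with lower ones, beside 38.9% and 41.5% of all transcripts. The most heavy-sided were uc007puz.1 (2.30), uc007pub.2 (2.29), uc007pri.1 (2.09), uc007puq.2 (1.96), uc007puj.2 (1.94) and uc007pun.1 (1.84). For uc007puz.1, 3565.5 and 3542.8 RPM in heavy stood against 713.5 and 726.1 RPM in light with control siRNA. The light-sided ones were uc007puo.1 (-1.25), uc007pux.1 (-0.62), uc007prf.1 (-0.52) and uc007pua.1 (-0.31), all 4 called, and uc007pre.1 (-0.11), not called.

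Members that were heavy-sided and light-sided in control cells had unlike light differences and similar heavy ones. The 7 members above 1.5 with control siRNA had a median heavy difference of -0.59 and a median light difference of 0.59, and so a median shift of -1.18. The 39 members between 0 and 1.5 had -0.72 in heavy and 0.24 in light, with a median shift of -0.99. The 5 members below 0 had -0.65 in heavy and -0.37 in light, with a median shift of -0.28. The control siRNA libraries enter both measures, so this is a description of the values and not a relation that was tested. For uc007puo.1, the most light-sided, the heavy pool held 587.9 and 756.7 RPM with Rpl10a siRNA, against 895.9 and 962.8 RPM with control siRNA. Both its pools were lower with Rpl10a siRNA by similar amounts, hence its shift of 0.09 despite heavy libraries that did not overlap.

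**Figure D3:**
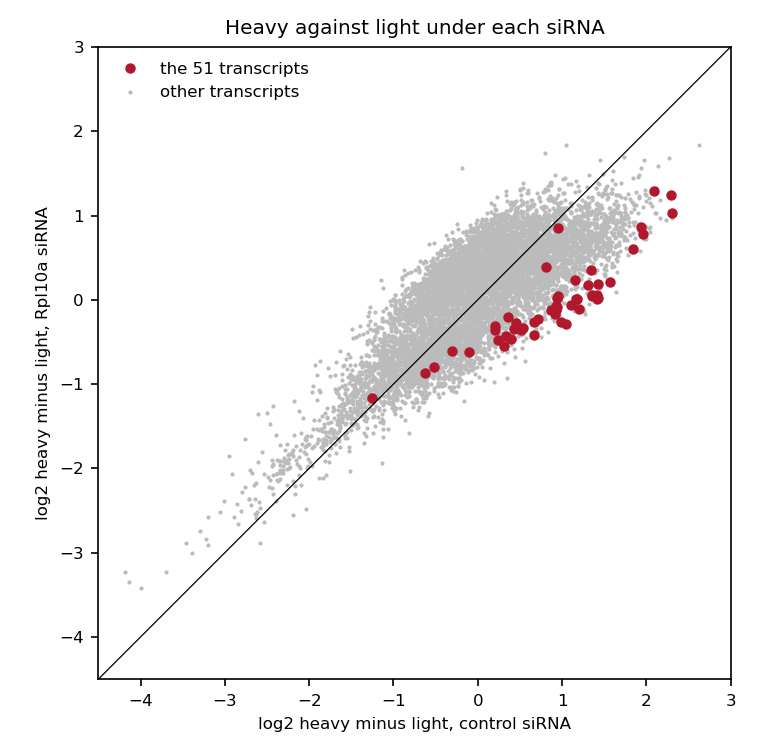
Log2 heavy minus light difference with Rpl10a siRNA (vertical) against that with control siRNA (horizontal), 1 point per transcript, with the 51 transcripts as large points and a line where both are equal. Of the large points 50 lie below the line, 1 lies just above it, and their horizontal range is -1.25 to 2.30.

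The named pair followed each other through the RNA-seq libraries. Their log2(RPM + 1) values over the 8 libraries had a Pearson correlation of 0.997. Of the 20 transcripts with the highest correlation to uc007prj.1, each 0.98 or above, 10 were members, and for uc007puu.1 it was 11 of 20. Over the other members the median correlation was 0.89 with uc007prj.1 and 0.88 with uc007puu.1, beside -0.06 with either over all transcripts, but the lowest member had -0.60. These correlations rest on 8 libraries of 4 groups, which share siRNA, pool and scaling, and they use the values that chose the pair. The shift of a member did not go along with its mean RNA-seq value (Pearson 0.04, Spearman 0.02, n = 51 transcripts of the same libraries).

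The footprint data were outside the rule, and there the members stood at high density. In the total libraries 49 of the 51 had a mean of 1000 RPKM or more in each line, out of 227 transcripts at that level in the Rpl10a line, 237 in the Rps25 line and 231 in the Rpl22 line. The median member had 2050 RPKM in the Rpl10a line, 1864 in the Rps25 line and 2108 in the Rpl22 line, beside medians over all transcripts of 24.4, 23.9 and 25.4 RPKM. Members made up between 8.36% and 12.2% of all summed RPKM over the 12 libraries. The highest was uc007puh.1, with 5301.0 and 4315.8 RPKM in the total libraries of the Rpl10a line. The other 2 members were far from the rest. In those libraries uc007pto.1 had 74.4 and 72.3 RPKM and uc007pun.1 had 39.3 and 39.1 RPKM, so these lie near the median transcript and not with the set. In the RNA-seq comparisons these were among the 3 members with the smallest heavy differences, the third being uc007puj.2.

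Other transcripts of high footprint density had lower shifts than most transcripts but not as low as the members. Of the transcripts outside the set, 168 reached 1000 RPKM in the total libraries of the Rpl10a line and were in the RNA-seq tables. Their median shift was -0.47, with quartiles of -0.68 and 0.22 and 115 of 168 below 0. Limma called 28 toward light and 14 toward heavy, beside 3.57% and 2.86% of all transcripts. Their median heavy difference was -0.51, with 124 of 168 below 0. In heavy 93 were called lower and 34 higher, beside 22.7% and 26.8% of all transcripts, so lower heavy values were not particular to the members. Their median light difference was 0.05 and their median heavy minus light difference with control siRNA 0.19. The difference from the members was not tested, since the shift chose the set. With all transcripts divided by mean RPM into 5 classes of nearly equal size, the highest class held 45 of the 51 members. The other transcripts of that class had a median shift of -0.11 and a median heavy difference of -0.29. The lowest class held 3 members and each of those between held 1.

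Footprint densities of members resembled each other more closely than their RNA-seq values did. The 49 dense members spanned 1174 to 4808 RPKM in the total libraries of the Rpl10a line, a 4.10-fold range, while their mean RNA-seq values ran from 4.78 to 3977 RPM, values that also contain transcript length. For 43 of 51 the transcript with the most similar RPKM values over the 12 Ribo-Seq libraries was another member. For 34 the most similar member differed by no more than 0.2 on the log2 scale in every Ribo-Seq library, and 1 of these 34 was also that close to it in all 8 RNA-seq libraries. The clearest case is uc007prr.2 and uc007prs.1. In the total libraries of the Rpl10a line uc007prr.2 had 3729.1 and 2962.1 RPKM and uc007prs.1 had 3689.8 and 2961.6 RPKM, and over all 12 Ribo-Seq libraries they differed by at most 0.05 on the log2 scale. In the heavy pool uc007prr.2 had 4.3 and 5.0 RPM with Rpl10a siRNA, against 7.7 and 10.4 RPM with control siRNA. There uc007prs.1 had 484.9 and 577.2 RPM with Rpl10a siRNA, against 870.6 and 953.7 RPM with control siRNA. Across the RNA-seq libraries they differed by up to 6.65 on the log2 scale, while their heavy differences between siRNAs, -0.82 and -0.78, were alike. No source used here says how reads that match several transcripts were assigned, and whether near-identical values come from shared reads was not tested, so values of single members are uncertain to that extent.

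**Figure D4:**
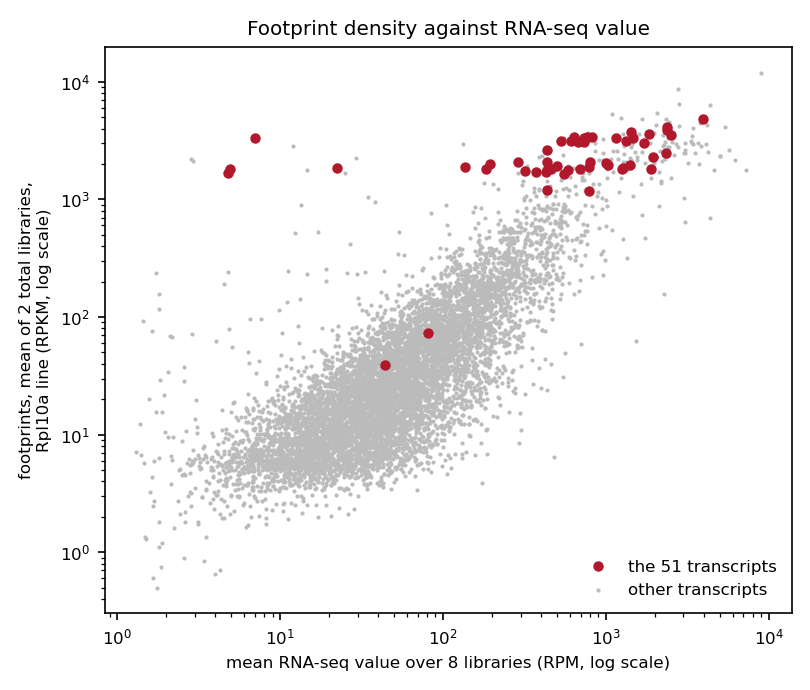
Mean footprint density of the 2 total libraries of the Rpl10a line (RPKM, log axis) against the mean RNA-seq value over 8 libraries (RPM, log axis, not divided by length), 1 point per transcript. Of the 51 transcripts 49 lie in a band between 1174 and 4808 RPKM over a wide range of RPM, and 2 lie lower, at 73.4 and 39.2 RPKM.

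The captures asked whether the members were more or less abundant on ribosomes holding RPL10A, RPS25 or RPL22, and these tests do not use the values that chose the set. With RPL10A, limma called 0 of 51 members, beside 0.847% higher and 0.611% lower over 8505 transcripts, and 3 had an unadjusted p below 0.05. The median log2 difference, capture minus total, was -0.12, with 20 members above 0 and a range of -0.44 to 0.45. Groups did not overlap for 14 members with higher capture values and 5 with lower ones, beside 28% and 28.7% of all transcripts. For uc007prj.1 the capture had 2824.8 and 3235.3 RPKM and the total 3868.4 and 2939.0 RPKM, and for uc007puu.1 the capture had 2631.5 and 3161.6 RPKM and the total 3953.4 and 2878.3 RPKM. In both, capture and total libraries overlapped, and the differences of -0.16 (SE 0.17) and -0.23 (SE 0.18) were near their errors. The largest positive difference was that of uc007puq.2, with 2185.9 and 2812.7 RPKM in the capture against 1832.4 and 1804.0 RPKM in total (0.45, SE 0.16, limma adjusted p = 0.139). The largest negative one was that of uc007pto.1, with 57.0 and 50.8 RPKM in the capture against 74.4 and 72.3 RPKM in total (-0.44, SE 0.17, limma adjusted p = 0.158). Their groups did not overlap, but neither passed the threshold. The sign of the median rests on single libraries: it was 0.04 without the first total library and 0.0039 without the first capture library.

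With RPS25, limma again called 0 of 51, beside 0.0342% higher and 0.0114% lower over 8779 transcripts, and 3 had an unadjusted p below 0.05. The median was 0.08, with 41 members above 0 and a range of -0.25 to 0.65. Groups did not overlap for 16 members with higher capture values and 1 with lower ones, beside 27.9% and 25.9% of all transcripts. The pair had 3020.3 and 2639.7 RPKM in the capture against 2473.0 and 2583.7 RPKM in total for uc007prj.1, and 2872.1 and 2547.9 RPKM against 2413.2 and 2577.7 RPKM for uc007puu.1. Capture lay above total in uc007prj.1 and overlapped it in uc007puu.1, with differences of 0.16 (SE 0.09) and 0.12 (SE 0.09). The largest difference was that of uc007pun.1, a member of low density, with 82.0 and 71.7 RPKM in the capture against 50.9 and 46.1 RPKM in total (0.65, SE 0.13, limma adjusted p = 0.105). Its 4 libraries did not overlap between groups, and it was not called. The median was 0.19 without the second capture library and 0.0089 without the first.

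With RPL22, every member lay above 0 and none was called in the fit without a replicate term. With that term members were called, as given in the closing section, where the share over all transcripts is not given. The median log2 difference was 0.35, beside -0.03 over 8588 transcripts, of which 44.1% were above 0, and the members ranged from 0.04 to 0.50. Limma called 0 of 51 members and 0% of all transcripts in either direction. At an unadjusted p below 0.05 stood 47 of 51 members, beside 20.2% of all transcripts, and the smallest adjusted p of a member was 0.116. For 50 members both capture libraries lay above both total libraries, and for 0 below, beside 21.5% and 31.4% of all transcripts. For uc007prj.1 the capture had 2130.0 and 2454.1 RPKM against 1631.6 and 2036.7 RPKM in total (0.33, SE 0.12, limma adjusted p = 0.184). For uc007puu.1 it had 2565.0 and 2798.8 RPKM against 1766.7 and 2242.6 RPKM (0.43, SE 0.12, limma adjusted p = 0.137). Both had higher capture than total libraries without overlap, and the total libraries differed between themselves by more than the capture libraries did. The largest differences, not called, were those of uc007puo.1 (0.50), uc007pur.1 (0.49) and uc007put.1 (0.49). For uc007puo.1 the capture had 3318.6 and 3925.2 RPKM against 2274.6 and 2866.0 RPKM in total. The smallest was that of uc007pun.1, whose capture had 31.6 and 35.4 RPKM against 33.4 and 31.5 RPKM in total, with overlapping groups. As a share of all summed RPKM, members held 10.4% and 11.3% in the captures against 8.36% and 9.84% in the totals. The 168 other transcripts of high density had a median difference of 0.07 in this capture, 0.10 with RPL10A and -0.05 with RPS25. Scaled to the same total, the members' median was 0.26 beside -0.12 over all transcripts, and without the first total library it was 0.22.

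**Figure D5:**
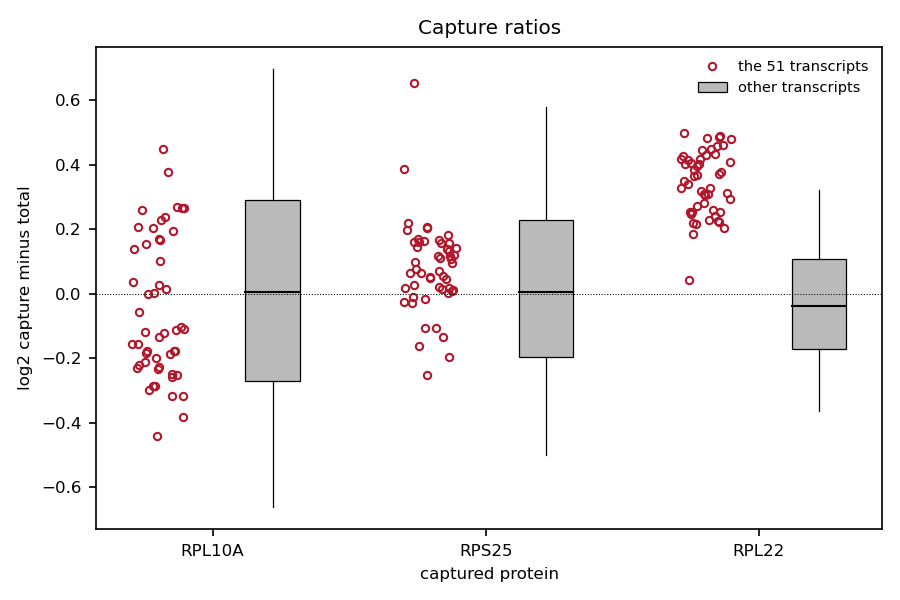
Log2 capture minus total difference, on the log2(RPKM + 1) scale, of the 51 transcripts (open circles, spread sideways for legibility) beside all other transcripts (box from the 25th to the 75th percentile with a line at the median, and lines to the 5th and 95th percentile). With RPL22 all 51 circles lie above 0, between 0.04 and 0.50, while with RPL10A 20 and with RPS25 41 of them do.

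The difference between the captures was examined in 1 fit of all 12 Ribo-Seq libraries, restricted to the 7605 transcripts that the 3 tables share, a contrast added after the values had been seen. The RPL10A difference minus the RPL22 difference had a median of -0.48 over the members, beside 0.04 over all, and was below 0 for 46 of 51. Limma called 0 of 51, beside 0.842% higher and 1.49% lower over all transcripts, with 29 at an unadjusted p below 0.05 and a smallest adjusted p of 0.0621, that of uc007ptw.1 (-0.81, SE 0.21). With each library left out in turn, the members' median lay between -0.67 and -0.33. The line, the tag, the antibody and the lysis buffer all differ between these captures and cannot be told apart.

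Among the members the captures divided the set. The 20 members with an RPL10A difference above 0 had a median RPL22 difference of 0.25, with a range of 0.04 to 0.41, and the 31 at or below 0 had a median of 0.41, with a range of 0.30 to 0.50. Across the 51 the RPL10A and RPL22 differences had a Pearson correlation of -0.71 and a Spearman correlation of -0.76, beside -0.02 for both over the 7605 common transcripts. This is a description over transcripts that share the same 8 libraries and may share reads. The 31 members also had higher densities in total than the 20 in the Rpl10a line, with medians of 3127 and 1821 RPKM, and in the Rps25 line, with 2286 and 1776 RPKM, but lower ones in the Rpl22 line, with 1851 and 2130 RPKM. The Rpl10a totals are subtracted in the difference that made this split, so the order in that line is partly built in. None of these orders was tested. The polysome shift had a median of -0.87 in the 31 and -1.05 in the 20. Across the 51 the shift had Pearson correlations of -0.26 with the RPL10A difference, -0.52 with the RPS25 difference and 0.27 with the RPL22 difference. The Spearman correlations were -0.19, -0.58 and 0.19. These too are a description over transcripts of the same libraries and were not tested.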

How the data were processed

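Values were used as deposited by the authors, 1 file per library: RPKM per transcript for the Ribo-Seq libraries, and for the RNA-seq libraries a scaled signal that the authors call RPM, per the file headers. The RPM columns do not sum to 1 fixed total, and the reason is not known. The submitters' processing notes name cutadapt, Bowtie2, STAR (RNA-seq and RPL22 libraries) and the genome build mm10; no versions are stated. No source used here gives the filters on transcripts or the treatment of multiply matching reads. Depth is unknown, so no counting interval is given. Planned tests on log values were kept, although the RNA-seq column was treated as signal.

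Tests were made with limma 3.58.1 in R 4.3.3 on log2(value + 1) of all transcripts, with no filter on low values, moderated variances with a trend, two-sided, and Benjamini-Hochberg adjustment over the whole table; calls are at an adjusted p below 0.05. The 8 RNA-seq libraries shared 1 fit, and each Ribo-Seq line had a fit of its 4 libraries. On this scale the change of transcripts with low values is understated. The procedure was tested on simulated data. The members and lists were chosen with earlier results of these data known; the level of 1000 RPKM and the grouping at 1.5 were chosen after seeing the data. Named transcripts are the pair and the identifiers beside it, up to 6 called members per direction with the largest non-overlapping difference, up to 3 where none was called, and members with the highest and lowest total RPKM; others named are exceptions picked after their values were seen. Groups follow the sample titles. Replicate numbers were not taken to pair libraries. Replicate files shared at most 1.53% identical values. Alternatives were other pseudocounts (0.25 and 5), no trend, both rescalings, a mean of at least 10 (48 of 51 members remain in the RNA-seq fits), a replicate term, smaller fits and leaving out each library.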

Additional observations from a re-analysis of the deposited data

Results flagged for a closer look

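The heavy and the light difference between Rpl10a siRNA and control siRNA were unlike in the same transcript for 34 of the 51 members, by limma's test of the difference itself, the polysome shift. Over all transcripts, 3.57% were called toward light and 2.86% toward heavy by that test. That contrast also chose the named pair and so the prefixes, and the number is a description. It depends on the variance trend and on single libraries, as given below. No group here is large enough to look for single libraries that stand apart, since each has 2.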

How the results depend on the processing

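No median over the members changed direction under the other settings, except that those for RPL10A and for heavy against light with Rpl10a siRNA crossed 0 within their ranges below. This does not cover differences of single members that were not called, whose sign could change. Without the variance trend the number of members called in the shift was 0 and in the light pool 3. Scaled to the same total, the light pool had 24 calls and a median of 0.29. Replicate numbers were not taken to pair libraries, as the labels do not say that a number marks a shared culture or day. Over all transcripts, same-numbered deviations had correlations of 0.40 to 0.62 between RNA-seq groups. For RPL10A, RPS25 and RPL22 they were -0.0036, 0.0077 and 0.18. Over the members alone they were 0.43 to 0.81 between RNA-seq groups, and -0.29, 0.28 and 0.38 for these captures. If a number does mark a shared preparation, the fits without a replicate term ignore that pairing. With the replicate block there were 27 calls in the light pool, 37 in the RPL22 capture and 45 in the shift. Shares of all transcripts called with the block are not given here, so these counts are not read as a trait of members. Fits of 4 libraries gave 17 calls in the light pool and 13 for heavy against light with Rpl10a siRNA. Leaving out each library in turn gave 0 to 42 calls and a median of -1.10 to -0.86 for the shift, and 0 to 25 calls and a median of 0.19 to 0.36 for the light pool. It gave 11 to 23 calls and a median of -0.24 to 0.03 for heavy against light with Rpl10a siRNA, and medians of -0.27 to 0.04 for RPL10A, 0.0089 to 0.19 for RPS25 and 0.22 to 0.50 for RPL22. For RPL10A minus RPL22 it gave 0 to 16 calls and a median of -0.67 to -0.33. The heavy pool had 32 to 49 calls and heavy against light with control siRNA 38 to 45. Of the values of named members under alternatives, 904 kept their side of the threshold, 125 lost the call and 22 gained it. A value that changed sign without a call in either fit was counted among the 904. The depth is unknown, and each group has 2 libraries.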
